A study of Mus musculus with 6 samples.

Results

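The T cell receptor gene segments are the variable (V) and constant (C) gene pieces from which T cells build their antigen receptors. They were taken as every gene of the count table whose symbol starts with Trav, Trbv, Trdv or Trgv, or with Trac, Trbc, Trdc or Trgc. That gave 174 genes of 55335, made up of 128 Trav, 35 Trbv, 6 Trdv and 1 Trgv segments and of the constant genes Trac, Trbc1, Trbc2 and Trdc. No symbol started with Trgc. The RNA came from CD4 T cells of the colon lamina propria. To induce colitis, naive splenic CD4 T cells of TcfGFP mice had been given to Rag1 KO hosts, which cannot make T or B cells of their own. One gate held GFP+ cells, which the labels call stem-like and TCF7+, and the other held GFP- cells, which they call effector and TCF7-. There were 3 libraries of each, numbered 1 to 3 in both gates. What the number stands for, the age of the mice and whether cells of several hosts were pooled are not in the labels, so the p-values below rest only on how far these libraries differ among themselves.

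The alpha and beta chains of the receptor each carry a variable domain and a constant domain. In the thymus, one V segment is joined to a joining (J) segment, with a diversity (D) segment between them in the beta chain, and the joined exon is spliced to the constant gene. A T cell and its daughters keep the same joined V exons, so the V segments in the mRNA of a population reflect which clones it holds, while the constant genes are shared by all of them. Most CD4 T cells carry alpha-beta receptors. Gamma and delta segments serve the separate lineage of gamma-delta T cells, although alpha-beta T cells can transcribe rearranged gamma genes as well.

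The V segments on which the results turn are shown by the last 60 bases of their coding sequence in GENCODE M21 (mm10), 5′ to 3′. Capitals mark the codon of the conserved cysteine at the start of the third complementarity-determining region, which contacts the antigen peptide, and the germline bases after it. The first 6 are beta segments that led a library or whose shares differed between libraries, as described below.
Trbv3: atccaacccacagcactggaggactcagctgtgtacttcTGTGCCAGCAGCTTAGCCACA
Trbv13-2: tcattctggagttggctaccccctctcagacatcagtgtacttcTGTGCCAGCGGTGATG
Trbv13-3: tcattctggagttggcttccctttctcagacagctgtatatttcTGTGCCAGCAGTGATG
Trbv16: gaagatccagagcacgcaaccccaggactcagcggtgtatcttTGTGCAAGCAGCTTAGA
Trbv19: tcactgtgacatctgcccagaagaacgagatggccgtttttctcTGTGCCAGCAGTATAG
Trbv20: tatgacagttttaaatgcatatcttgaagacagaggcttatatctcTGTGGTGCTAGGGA

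The alpha locus holds duplicated copies, so 4 members of the Trav14 subgroup are shown to let their ends be compared, with 3 other alpha segments that separated the libraries.
Trav14-1: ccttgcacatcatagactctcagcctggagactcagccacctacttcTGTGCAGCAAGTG
Trav14-3: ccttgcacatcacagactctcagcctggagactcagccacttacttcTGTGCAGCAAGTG
Trav14d-3-dv8: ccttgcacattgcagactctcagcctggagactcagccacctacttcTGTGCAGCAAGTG
Trav14n-3: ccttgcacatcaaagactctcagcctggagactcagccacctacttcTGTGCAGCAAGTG
Trav3-3: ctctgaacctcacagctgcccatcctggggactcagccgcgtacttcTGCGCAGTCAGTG
Trav7-4: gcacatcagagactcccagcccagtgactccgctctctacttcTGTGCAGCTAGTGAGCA
Trav15-2-dv6-2: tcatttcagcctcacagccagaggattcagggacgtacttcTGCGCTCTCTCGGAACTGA
All 4 Trav14 members end in the same germline bases after the cysteine codon. Coding sequences were compared base by base back from their ends, with no gaps. Over the 361 coding bases compared, Trav14d-3-dv8 and Trav14n-3 differed at 12 positions (96.7% identity). Trav14-1, which has 364 coding bases, differed from Trav14d-3-dv8 at 64 (82.3%). With lengths that differ and no gaps allowed, that last value may be too low. Trbv13-2 and Trbv13-3 were 90.6% identical over 340 bases.

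The beta V segments lie on chromosome 6 (40891229 to 41558452, mm10) and the alpha V segments on chromosome 14 (52427928 to 53977678). Of the 35 Trbv segments, 25 had a count in at least 1 library, and all 10 with 0 everywhere are annotated as pseudogenes. Of the 128 Trav segments, 68 had a count and 60 were at 0 in every library, of which 46 are annotated as functional. A read of 100 bases can match several of the duplicated copies. Among the 60 Trav segments at 0, 39 had every 100-base window of their transcript also present in the transcript of another gene. Among the 68 with a count, 1 did. How the authors treated reads that match several genes is not given in the sources used here. A 0 of such a segment does not show that it was unused. Trav11, the alpha segment of invariant natural killer T cells, is such a case. It was at 0 in all 6 libraries, and 99.6% of its windows are shared with its copy Trav11d, also at 0. Trav1, the alpha segment of mucosal-associated invariant T cells, shares no window and was at 0 as well.

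Total counts ran from 4309500 to 7462076 per library, and the segments held between 0.256% and 0.351% of them. Alpha V segments together had 1097 to 1562 counts and beta V segments 2329 to 4362 counts per library. A share of the V total in 1 library had a 95% Wilson interval of at most ± 2.26 percentage points for Trav and ± 1.70 for Trbv, which covers counting error only. GFP-positive replicate 3 carried transcripts of other cells. The 10 myeloid markers made up 0.673% of its total and from 0.0268% to 0.0390% in the other 5 libraries. The markers of the labelled cell type were present, with Cd4 at 510 to 695 CPM and Cd3e at 622 to 795 CPM in the 6 libraries (CPM are counts scaled to a common library size), and Ms4a1, which marks B cells, was at 0 in all of them.

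The first question was whether the gates differed in receptor transcripts. No segment was called between them. Trac, the alpha constant gene (ENSMUSG00000076928.5, chromosome 14, 54220521 to 54224206), stood at 786, 698 and 696 CPM across GFP-negative replicates 1 to 3, and 826, 699 and 551 CPM across the GFP-positive ones. The gates overlapped, and the means were 692 ± 138 CPM in the GFP+ gate and 727 ± 51.6 CPM in the GFP- gate (SD, n = 3 a gate), with a log2 fold change at -0.07 ± 0.16 (SE; edgeR adjusted p = 0.925). The log2 fold change is GFP-positive minus GFP-negative throughout. In bulk RNA, fewer cells of a type and less RNA per cell cannot be told apart.

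Trbc1 and Trbc2, the beta constant genes, were not called either. Trbc2 (chromosome 6, 41546730 to 41548352) had 1027.5, 889 and 913 CPM across GFP-negative replicates 1 to 3, and 1083, 953 and 820 CPM across the GFP-positive ones. Trbc1 (chromosome 6, 41538218 to 41539881) had 437, 448 and 559 CPM against 418, 520 and 447 CPM. For both genes the gates overlapped, with log2 fold changes of 0.01 ± 0.15 for Trbc2 and -0.06 ± 0.15 for Trbc1 (SE; edgeR adjusted p = 0.988 and 0.930). Their coding sequences are 95.6% identical over 518 bases, and about 3 in 10 of their 100-base windows (30.9% of Trbc2, 28.7% of Trbc1) occur in both transcripts, so their split is uncertain. Trbc1 made up 33.8% ± 4.08 of the Trbc counts in GFP-negative and 32.8% ± 4.28 in GFP-positive libraries.

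**Figure D1:**
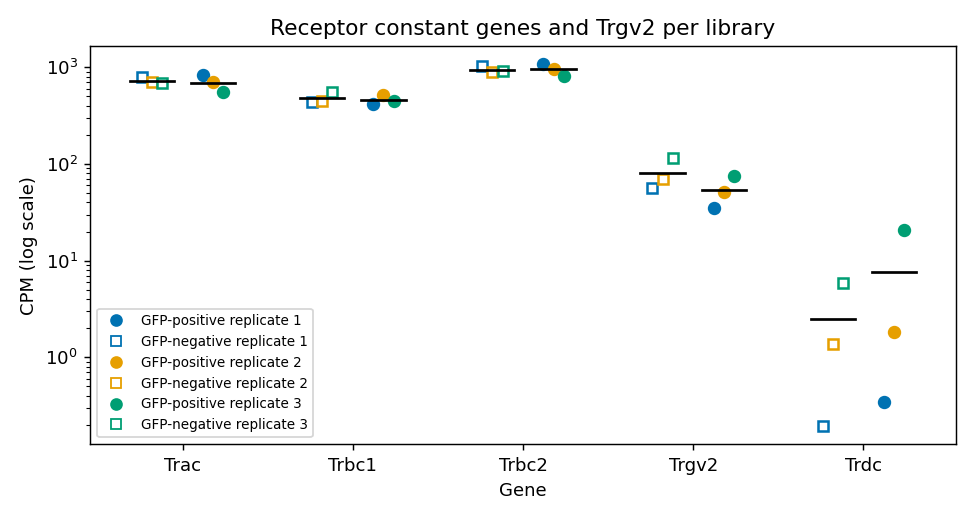
CPM on a log scale of Trac, Trbc1, Trbc2, Trgv2 and Trdc in each of the 6 libraries, with squares for GFP-negative, circles for GFP-positive, colours for replicate numbers and bars for the mean of 3. The alpha and beta constant genes lie within 418 to 1083 CPM and overlap between gates, while Trdc ranges from 0.194 to 20.9 CPM.

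The V totals of the gates overlapped too. Alpha V segments summed to 248 ± 30.6 CPM in the GFP+ gate and 242 ± 22.7 CPM in the GFP- gate, and beta V segments to 659 ± 83.5 and 627 ± 84.8 CPM (SD, n = 3 a gate). Per count of Trac there were 0.362 ± 0.0309 alpha V counts in the GFP+ gate and 0.335 ± 0.0527 in the GFP- gate. Per count of Trbc there were 0.466 ± 0.0445 and 0.439 ± 0.0374 beta V counts. In each of these measures the gates overlapped. Within each number, though, the GFP-positive library had the higher ratio, in 3 of 3 pairs for both chains. Alpha V per Trac was 0.275, 0.357 and 0.373 across GFP-negative replicates 1 to 3, and 0.327, 0.372 and 0.387 across the GFP-positive ones. Beta V per Trbc was 0.465, 0.396 and 0.456 against 0.503, 0.417 and 0.479. The V totals in CPM went both ways.

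Of the 174 segments, 49 passed the filter on low counts, 26 Trav and 18 Trbv among them. By edgeR's quasi-likelihood test 0 of the 49 were called at an adjusted p of 0.05, where 0.108% of all 11074 tested genes were (0.0361% higher and 0.0722% lower in the GFP+ gate). At an unadjusted p under 0.05 the count was 0 of 49 too, where the share of all tested genes was 10.3%. DESeq2 called 0 of 69. With no filter on low counts edgeR called 1 of 103 segments, Trav14n-3, lower in GFP-positive libraries (log2 fold change -2.01, adjusted p = 0.0466). The median log2 fold change was -0.08 over the tested Trav and 0.16 over the tested Trbv segments, against 0.02 over all tested genes. CPM values did not overlap between the gates for 1 of 49, Trav13-4-dv7, where the share of all tested genes was 16.0%. It had 0.682 to 3.51 CPM in GFP-negative and 3.81 to 9.66 CPM in GFP-positive libraries (log2 fold change 1.49 ± 0.78, SE; edgeR adjusted p = 0.566).

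Beta chain use differed between libraries of the same gate. Trbv16 (ENSMUSG00000076473.3, chromosome 6, 41151740 to 41152230) held 17.8%, 2.19% and 1.57% of the Trbv counts across GFP-negative replicates 1 to 3, and 28.1%, 3.07% and 0.637% across the GFP-positive ones. It was thus high in both libraries numbered 1 and low in the other 4, and it led GFP-positive replicate 1 (95% Wilson interval 26.8% to 29.5%). Between the gates its log2 fold change was 0.71 ± 1.86 (SE; edgeR adjusted p = 0.937). Trbv20 (chromosome 6, 41188273 to 41188977), named after its values were seen, was also highest in both libraries numbered 1, but lowest in both numbered 2. It held 13.8%, 1.37% and 3.92% across GFP-negative replicates 1 to 3, and 10.7%, 2.25% and 3.78% across the GFP-positive ones.

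Trbv3 (chromosome 6, 41048290 to 41048828) had the highest mean share of the beta segments. It held 21.9%, 9.36% and 19.0% across GFP-negative replicates 1 to 3, and 14.6%, 11.4% and 20.6% across the GFP-positive ones, lowest in both libraries numbered 2. Trbv13-2 (chromosome 6, 41121396 to 41121832) led both libraries numbered 2. Its shares were 6.01%, 22.7% and 9.47% across GFP-negative replicates 1 to 3, and 9.47%, 15.01% and 11.5% across the GFP-positive ones. Its near copy Trbv13-3 (chromosome 6, 41130147 to 41130585) ranked the libraries differently, with 0.968%, 9.70% and 16.1% against 3.55%, 9.84% and 17.5%. It was highest in both libraries numbered 3 and lowest in both numbered 1.

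Trbv19 (chromosome 6, 41178375 to 41179048) held 2.33%, 15.5% and 18.8% across GFP-negative replicates 1 to 3, and 4.08%, 12.3% and 7.39% across the GFP-positive ones. Here the libraries numbered 3 did not go together. Trbv13-1, Trbv26 and Trbv29 had the smallest p of the beta segments between the gates, with log2 fold changes of -0.94 ± 0.68, 0.72 ± 0.57 and 1.26 ± 1.11 (SE; edgeR adjusted p = 0.717, 0.742 and 0.766). Trbv13-1 held 8.77% in GFP-negative replicate 1 and 1.21% to 3.86% in each other library. In contrast Trbv12-1 was even, at 1.86% to 2.40% in all 6 libraries; it is named after its values were seen.

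**Figure D2:**
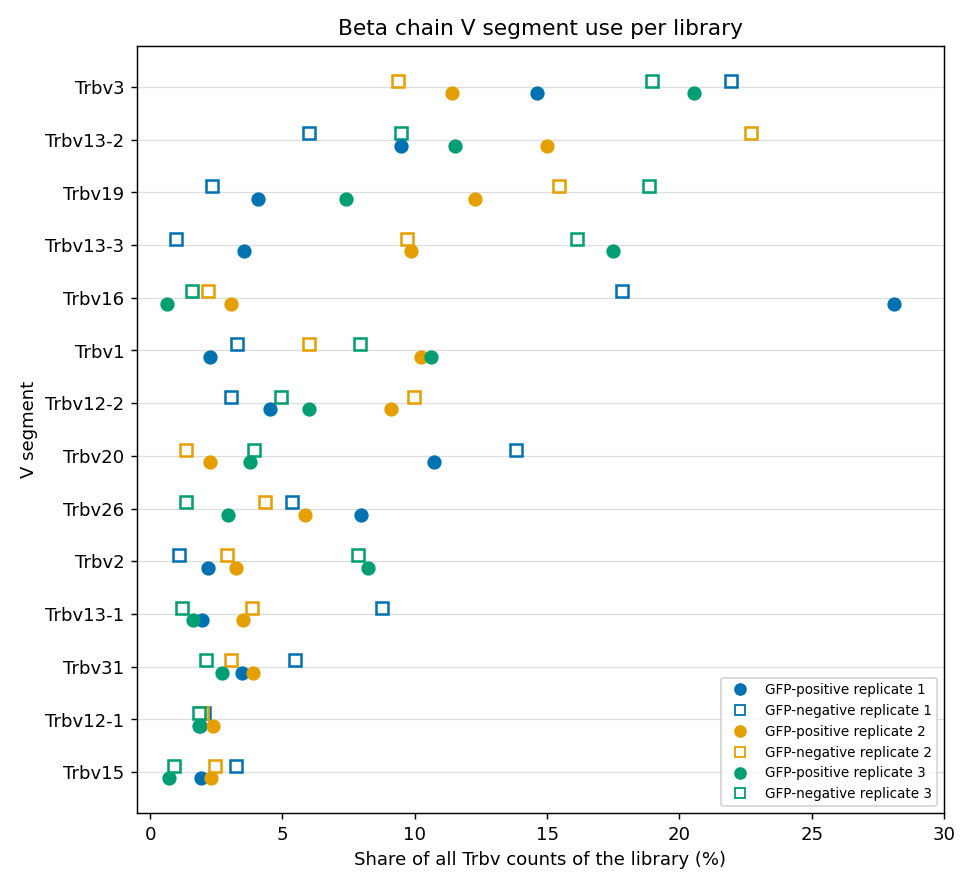
Share of all Trbv counts (percent, x axis) of the 14 beta segments with the highest mean share, in each library. Squares are GFP-negative and circles GFP-positive libraries, and colours are replicate numbers. Symbols of 1 colour lie near each other in many rows, as for Trbv16 at 17.8% and 28.1% in the libraries numbered 1 against 0.637% to 3.07% in the others.

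Alpha chain use was spread over more segments and separated the same libraries. Trav14-1 (ENSMUSG00000076840.4, chromosome 14, 53554022 to 53554558) held 0.986%, 14.3% and 9.20% of the Trav counts across GFP-negative replicates 1 to 3, and 1.54%, 14.5% and 11.0% across the GFP-positive ones. It was low in both libraries numbered 1 and led both numbered 2 and GFP-positive replicate 3. Its relative Trav14d-3-dv8 (chromosome 14, 53078452 to 53079045) was the reverse, with 7.44%, 0.182% and 0.253% against 23.9%, 0.442% and 0.875%. It led GFP-positive replicate 1 with 373 of 1562 counts (95% Wilson interval 21.8% to 26.1%). It had too few counts outside the libraries numbered 1 to pass the filter.

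Trav14n-3 (chromosome 14, 53370077 to 53370575) was high in GFP-negative replicate 1, at 14.6%, and held 0.265% to 2.70% in each other library. Its log2 fold change between the gates was -2.01 ± 0.99 (SE; edgeR adjusted p = 0.557), and -0.57 without GFP-negative replicate 1. Its transcript shares 22.9% of its 100-base windows with 2 other Trav14 segments, so reads can be exchanged among these copies. By the same measure Trav14-1 shares 0% and Trav14d-3-dv8 1.96% of its windows. Summed over the Trav14 subgroup the shares were closer, from 17.2% to 29.6% in the 6 libraries. In the Trav7 subgroup the sums still differed, at 2.96% and 6.40% in the libraries numbered 1 and 17.8% to 23.6% in the other 4.

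Trav7-4 (chromosome 14, 53461099 to 53461738) accounted for much of that. It held 0.179%, 9.66% and 7.43% across GFP-negative replicates 1 to 3, and 0.0640%, 6.19% and 8.69% across the GFP-positive ones, which is 2 counts and 1 count in the libraries numbered 1. Trav9-2 (chromosome 14, 53590857 to 53591514) led GFP-negative replicate 3. Its shares were 0.0896%, 3.83% and 9.54% across GFP-negative replicates 1 to 3, and 0.384%, 2.57% and 5.05% across the GFP-positive ones, highest in both libraries numbered 3. Trav15-2-dv6-2 (chromosome 14, 53649404 to 53649994), named after its values were seen, was at 0 in both libraries numbered 1. The floor of 3 counts stands at 0.269% in GFP-negative and 0.192% in GFP-positive replicate 1. The upper 95% Wilson limits there are 0.343% and 0.245%. It held 4.64% and 10.6% in the libraries numbered 3.

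Trav3-3, in contrast, differed within the pair numbered 1. This segment (chromosome 14, 53665929 to 53666506) led GFP-negative replicate 1 at 18.2% and held 4.16% in GFP-positive replicate 1 and 1.14% to 4.65% in the other 4 libraries (log2 fold change between gates -1.40 ± 0.71, SE; edgeR adjusted p = 0.567). Trav4-4-dv10 held 8.69%, 4.47% and 0.759% across GFP-negative replicates 1 to 3, and 8.39%, 7.26% and 4.51% across the GFP-positive ones, highest in both libraries numbered 1 and lowest in number 3 of each gate. Its log2 fold change was 0.67 ± 0.65 (SE; edgeR adjusted p = 0.794). Letters d and n in the names mark duplicated copies of the alpha locus. Copies with d held 34.8% of the Trav counts in GFP-positive replicate 1 and 8.35% to 11.0% in each other library, and copies with n held 28.6% in GFP-negative replicate 1 and 2.56% to 11.1% elsewhere.

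**Figure D3:**
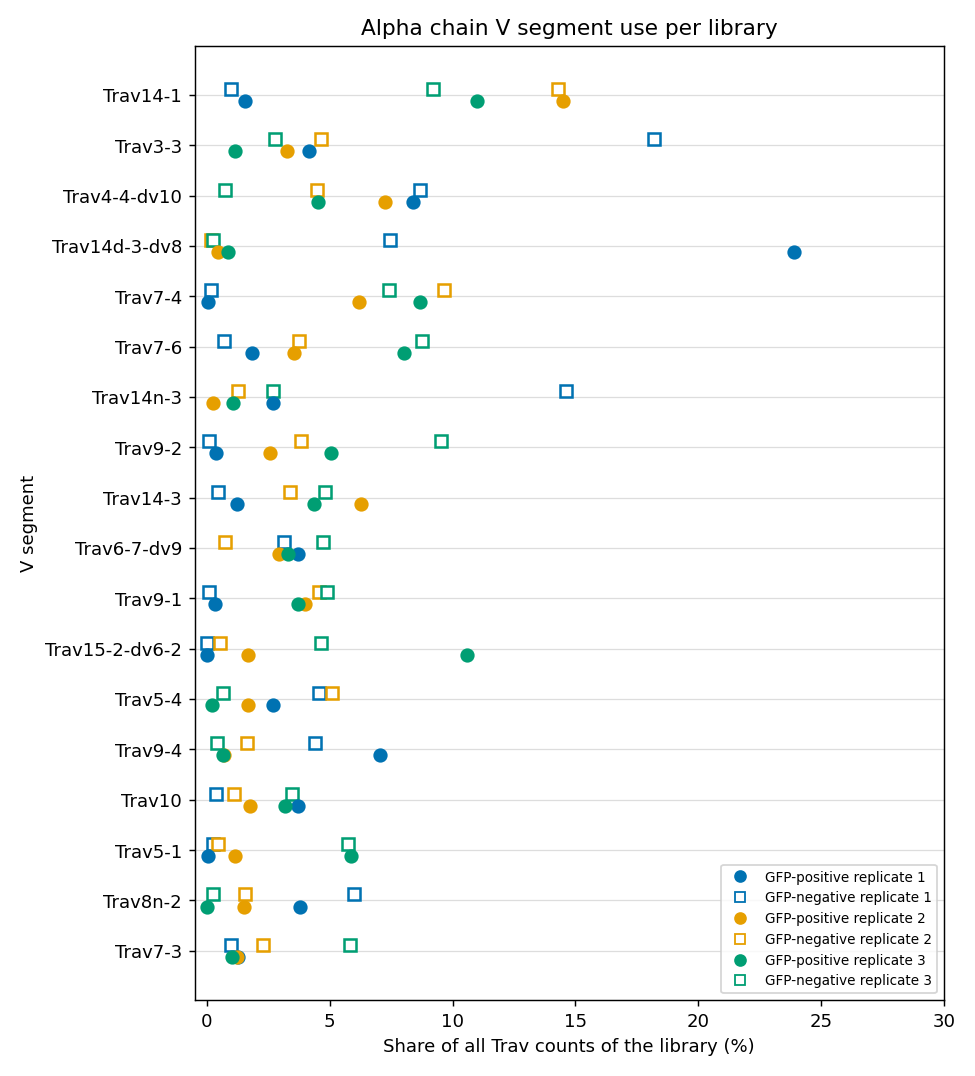
Share of all Trav counts (percent, x axis) of the 18 alpha segments with the highest mean share, in each library. Squares are GFP-negative and circles GFP-positive libraries, and colours are replicate numbers. Trav14-1 lies at 0.986% and 1.54% in the libraries numbered 1 and at 9.20% to 14.5% in the other 4.

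Whole V profiles were then compared between libraries by the Bray-Curtis dissimilarity of the shares, which is 0 for equal use and 1 where no segment is shared. Same-numbered libraries of the 2 gates used the most similar V segments. For Trbv the 3 same-numbered pairs had 0.239, 0.142 and 0.137 for numbers 1 to 3. The 6 pairs across gates with different numbers had 0.284 to 0.476, and the 6 pairs within a gate 0.251 to 0.536. For Trav the same-numbered pairs had 0.406, 0.265 and 0.276, the different-numbered pairs 0.401 to 0.759 and the pairs within a gate 0.378 to 0.785. The ranges did not overlap for Trbv, and for Trav they overlapped only through the pair numbered 1.

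In both loci the nearest of the 5 other libraries was the same-numbered one of the other gate for 6 of 6 libraries. The libraries numbered 2 and 3 were nearer to each other than to those numbered 1. The mean over same-numbered pairs was 0.315 ± 0.0785 (SD, n = 3) for Trav and 0.173 ± 0.0576 for Trbv, against 0.602 ± 0.148 and 0.413 ± 0.0830 over the different-numbered pairs (SD, n = 6). Pairs share libraries, so no p is given. With GFP-positive replicate 3 left out, because of its myeloid transcripts, the mean of same-numbered pairs minus that of different-numbered pairs was -0.278 for Trav and -0.227 for Trbv, against -0.287 and -0.240 with it.

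Joining segments, counted from the same libraries, did not show this pattern. They were thinly counted, however. Only 20 of the 84 joining and diversity segments passed the filter, and Trbj1-1, Trbj2-1 and Trbj2-7 had 11 to 86 counts per library. Whether such counts could show the pattern was not tested. For Traj the same-numbered pairs averaged 0.400 ± 0.00807 and the different-numbered pairs 0.407 ± 0.0440. For Trbj the means were 0.227 ± 0.0133 and 0.242 ± 0.0546. The nearest library was the same-numbered one of the other gate for 0 of 6 libraries in Traj and 1 of 6 in Trbj.

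**Figure D4:**
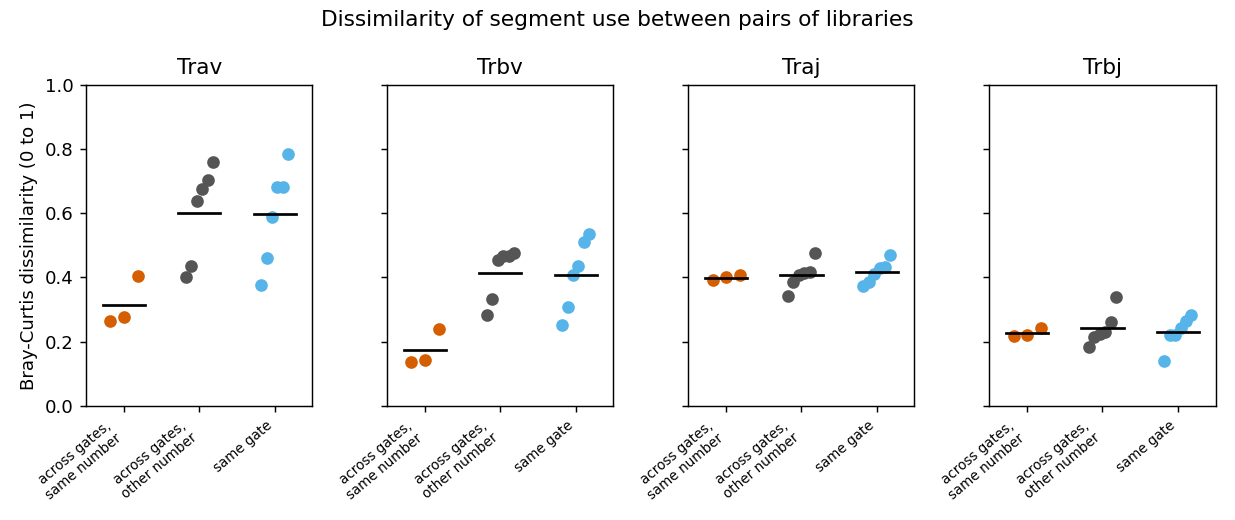
Bray-Curtis dissimilarity (y axis, 0 to 1) of segment shares for the 15 pairs of libraries in Trav, Trbv, Traj and Trbj, grouped by whether the pair crosses the gates with the same number, crosses them with another number or lies within a gate. Bars are means. Same-numbered pairs average 0.173 in Trbv and 0.315 in Trav, below the other pairs, and 0.400 in Traj, close to them.

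The same contrast was seen gene by gene. In a fit over all 11074 genes with the gate and the replicate number as terms, the number was called for 3 genes (0.0271%), and 2 of them were segments, Trbv20 and Trav7-4 (edgeR adjusted p = 0.0242 each). At an unadjusted p under 0.05 there were 30 of 49 tested segments, 16 of 26 Trav and 13 of 18 Trbv, where the share of all tested genes was 7.06%. The gate term of that fit called 0 of 49 segments, where it called 0.731% of all tested genes, and 4 of 49 had an unadjusted p under 0.05, where the share of all tested genes was 11.8%. Trav14-1 and Trbv16 had edgeR adjusted p of 0.0535 and 0.186 for the number. Trac, Trbc1 and Trbc2 had 0.768, 0.886 and 0.830.

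This fit had 2 residual degrees of freedom, and it was chosen after the data were seen. Leaving out GFP-negative replicate 1, the number was called for 0 of 62 segments and 30 of 11526 genes. Without GFP-negative replicate 2 these were 11 of 62 and 69 of 11840, and without GFP-negative replicate 3 they were 22 of 68 and 545 of 11866. Without GFP-positive replicate 1 they were 1 of 62 and 20 of 11514, without GFP-positive replicate 2 they were 4 of 60 and 17 of 11793, and without GFP-positive replicate 3 they were 25 of 65 and 165 of 11361. The most segments and the most genes were called without GFP-negative replicate 2, GFP-negative replicate 3 or GFP-positive replicate 3. The order of these fits differed between segments and genes. In these fits a number left with 1 library is assumed to vary like the others. At an unadjusted p under 0.05, between 40.3% and 63.1% of the tested segments passed in these 6 fits, against 5.05% to 13.1% of all tested genes.

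Ranks were counted as well, also after the data were seen. The 2 libraries with the highest CPM bore the same number for 25 of 49 tested segments, 12 of 26 Trav and 10 of 18 Trbv among them, where the share of all tested genes was 20.4%. In Trav these were libraries numbered 1 for 5 segments, 2 for 2 and 3 for 5. In Trbv they were numbered 1 for 5, 2 for 2 and 3 for 3.

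**Figure D5:**
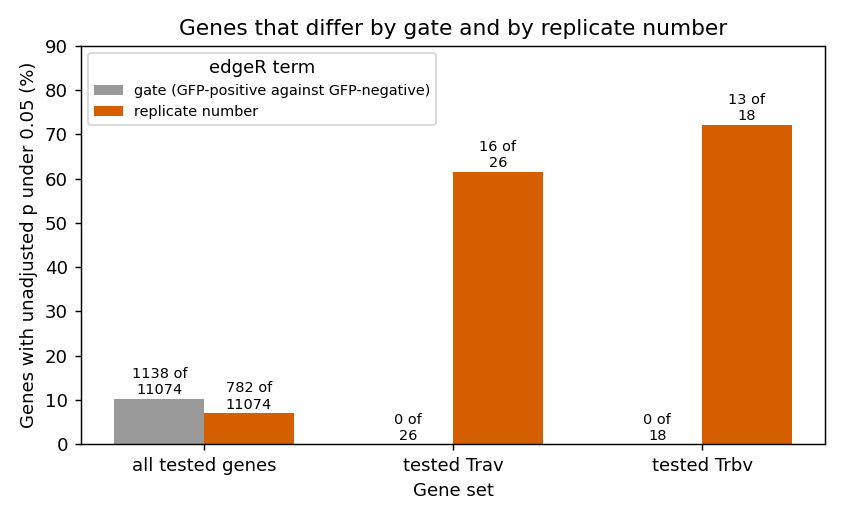
Percent of genes with an unadjusted edgeR p under 0.05 (y axis) for the gate, in the fit with the gate alone, and for the replicate number, in the fit with both, over all tested genes, tested Trav and tested Trbv segments. For the number the bars reach 16 of 26 Trav and 13 of 18 Trbv, against 782 of 11074 genes, and for the gate they are at 0 in both loci.

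The breadth of V use overlapped between the gates. The effective number of segments, the exponential of the Shannon entropy of the shares, was 18.3, 27.7 and 23.4 for Trav across GFP-negative replicates 1 to 3, and 21.3, 30.6 and 25.7 across the GFP-positive ones. For Trbv it was 11.1, 12.0 and 10.4 against 10.7, 13.7 and 11.2. The values overlapped in both loci. Within each number the GFP-positive library had the higher value for Trav, in 3 of 3 pairs, and for Trbv in numbers 2 and 3 only. With 1 library left out, the Trav difference of gate means stayed positive, from 0.286 to 5.03. By the inverse Simpson number, another measure of breadth, the GFP-positive library was the higher for Trav in number 2 alone (20.4 against 18.8). Trav was narrowest in the libraries numbered 1, where the 3 leading segments held 41.5% and 39.8% of the counts, against 27.5% to 30.2% in the other 4. The leading Trbv segment held 15.01% to 28.1% of its library, 21.2% ± 1.98 on average in GFP-negative and 21.2% ± 6.57 in GFP-positive libraries (SD, n = 3 a gate).

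Pseudogenes took a small part of the V counts, 0.169% to 2.19% in Trav and 0.0429% to 1.99% in Trbv. Trbv24, annotated as a pseudogene (chromosome 6, 41218091 to 41218557), was the main one in the libraries numbered 1 and is named after its values were seen. It held 1.99% and 1.72% of the Trbv counts in the libraries numbered 1 and 0.0429% to 0.165% in the other 4, so it was high in the same libraries as Trbv16 and Trbv20.

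Delta segments were rare. Trdc, the delta constant gene (chromosome 14, 54142851 to 54148868), had 1, 6 and 27 counts across GFP-negative replicates 1 to 3, and 2, 8 and 146 across the GFP-positive ones, or 20.9 CPM in the last, and did not pass the filter. Trdv4 had 15, 79 and 12 counts against 0, 1 and 32, and its log2 fold change was -2.21 ± 1.36 (SE; edgeR adjusted p = 0.656). Trdv1 had 20 and 29 counts in the libraries numbered 2 and 1 to 7 in the others, and Trdv2-2 had 0 to 15. Trdv5 is counted with 9 in GFP-negative replicate 1 alone.

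The high Trdc count stood in the library that also held the myeloid transcripts. In the GFP- gate, too, Trdc was highest in replicate 3, at 27 counts. There the myeloid markers made up 0.0385% of the total. Of the other genes listed for gamma-delta T cells, Sox13 is a transcription factor of that lineage. It had 4 counts in GFP-positive replicate 3 and 0 in the other 5 libraries. Blk, a kinase of B cells and gamma-delta T cells, was at 0 in all GFP-positive libraries. In GFP-negative replicates 1 to 3 it had 7, 7 and 5 counts. Cd163l1, also of that list, went the other way. It had 72, 63 and 40 counts across GFP-negative replicates 1 to 3, and 89, 100 and 106 across the GFP-positive ones. Its CPM did not overlap between the gates either. Summed, the 7 genes found of that list held 0.0128% to 0.0255% of counts in GFP-positive and 0.0209% to 0.0374% in GFP-negative libraries. The gamma constant gene Tcrg-C2 was the largest part of that sum in every library. As alpha-beta T cells can transcribe gamma genes too, the sum does not measure gamma-delta T cells. Zbtb16, the factor of innate-like T cells, had 31 counts in GFP-positive replicate 3 and 0 elsewhere. The part of other cells in these values was not tested.

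Trgv2, the only gamma segment by the rule (chromosome 13, 19336573 to 19337167), was better expressed. It had 56.4, 69.6 and 116 CPM across GFP-negative replicates 1 to 3, and 35.3, 50.8 and 75.0 CPM across the GFP-positive ones. The gates overlapped (log2 fold change -0.58 ± 0.32, SE; edgeR adjusted p = 0.604), and within each number the GFP-negative library was the higher, in 3 of 3 pairs. In both gates the library numbered 3 was the highest, but the number was not called for Trgv2 (edgeR adjusted p = 0.262, unadjusted p = 0.00152).

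Genes that serve the receptor were not called between the gates. Of the 4 genes of the CD3 complex, which carries the receptor's signal into the cell, 0 were called and 0 had an unadjusted p under 0.05, with a median log2 fold change of -0.10. Cd3e had 687 ± 31.8 CPM in the GFP+ gate and 736 ± 98.8 CPM in the GFP- gate, and Cd3g 1255 ± 212 and 1253 ± 168 CPM (SD, n = 3 a gate). Cd247, the zeta chain, had 309 ± 45.6 and 368 ± 57.9 CPM, and Cd3d 613 ± 76.5 and 658 ± 35.3 CPM. Of the 3 coreceptor genes 0 were called, Cd4 at 564 ± 69.9 against 659 ± 57.3 CPM, Cd8a at 27.2 ± 17.9 against 66.7 ± 42.2 CPM and, at a low level, Cd8b1 (3.76 ± 1.94 against 5.09 ± 4.51 CPM). With the replicate number as a block Cd8a was called lower (log2 fold change -1.34, edgeR adjusted p = 0.0260).

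Of 6 genes of receptor assembly in the thymus, 2 passed the filter and 0 were called. Cd1d1, which presents lipids to invariant natural killer T cells, had 38.9 ± 6.08 CPM in the GFP+ gate and 25.0 ± 5.91 CPM in the GFP- gate (SD, n = 3 a gate; log2 fold change 0.64 ± 0.27, edgeR adjusted p = 0.437). Of the 84 joining and diversity segments 82 had a count, 20 passed the filter, 15 of them with a positive and 5 with a negative log2 fold change, and 0 were called. Their median was 0.42. The 4 named had the smallest p of the list. Among them were Trbj1-1, at 6.37 to 7.02 CPM in GFP-negative and 2.08 to 4.30 CPM in GFP-positive libraries, and Trbd2, at 5.003 to 7.24 and 7.82 to 11.3 CPM (edgeR adjusted p = 0.622 and 0.674). Trbj2-7 and Trbj2-1 had log2 fold changes of 0.77 ± 0.64 and 0.48 ± 0.57 (SE; edgeR adjusted p = 0.744 and 0.835).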

How the data were processed

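Poly(A) RNA of 6 bulk libraries was read as 2 × 100-bp pairs, per the labels' protocols, and the submitters' processing notes list STAR 2.7.10b, fastp 0.23.3 and the genome build mm10, with no role or setting. Raw gene counts and, separately, TPM were deposited by the authors. For the read counter and the annotation release, nothing is given in the sources used here. Every column matched 1 sample. The members and gene lists were chosen with earlier results of these data known. All 174 gene IDs matched GENCODE M21.

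Counts were tested with edgeR 4.0.16 (R 4.3.3; TMM, filterByExpr with a minimum count of 10, quasi-likelihood F test, Benjamini-Hochberg adjustment over 11074 genes, threshold 0.05). The design held the gate alone, and a fit that also held the replicate number was an alternative. DESeq2 1.42.0 was another. The fits were tested on simulated data, where the gate test missed most genes given the smaller fold, and the replicate-number term made more false calls than its threshold allows, so its calls are less firm than their adjusted p. Shares used the counts of each locus as total; deposited TPM served as an alternative. With 3 against 3 libraries an exact permutation test cannot go below 0.1, so the usage measures are given with no p. Intervals are 95% Wilson intervals, and the floor of a 0 is 3 counts.

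Named were the constant genes, the 5 segments of highest mean share and the 3 of smallest p in Trav and Trbv, each library's leading segment, the 3 highest Trdv and Trgv segments and up to 4 genes per list. Exceptions are marked in the text. Recombination signals are not analysed here. Some genes of the lists are not reported here.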

Additional observations from a re-analysis of the deposited data

How the results depend on the processing

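Between the gates, edgeR called 12 genes in all, against 373 with no filter on low counts, 156 by DESeq2 and 0 to 42 when 1 library was left out. With the replicate block it called 81. Segments called were 0 throughout, except 1 with no filter. The labels do not say that same-numbered libraries share a mouse. Deviations from the gate means correlated at 0.104, 0.0971 and 0.104 for the 3 same-numbered pairs over all tested genes, where every library correlated best with its own number, at 0.0747, 0.0916 and 0.0894 without receptor segments, and at 0.806, 0.504 and 0.709 over the 46 tested V segments. As 1 of the all-gene values is under 0.1, the replicate block is given only as an alternative. Segments called for the replicate number were 2 (of 3 genes called), against 18 (of 135) with no filter, 12 (of 70) by DESeq2 and 0 to 25 with 1 library left out, where 17 to 545 genes were called. Differences of usage between the gates changed sign when 1 library was left out for the leading Trav share (-1.27 to 5.18 points), the leading Trbv share (-3.43 to 3.12 points), the Trbc1 share (-2.93 to 1.51 points), the effective number of Trbv segments (-0.202 to 1.29) and alpha V per Trac count (-0.00332 to 0.0458). Log2 fold changes that changed sign in the same way ran from -0.18 to 0.0044 for Cd3d, -0.0910 to 0.14 for Cd3g, -0.88 to 0.54 for Cd8b1, -0.22 to 0.0767 for Trac, -0.15 to 0.0670 for Trbc1 and -0.0942 to 0.12 for Trbc2. In Trav they ran from -0.57 to 0.73 for Trav14-1, -0.91 to 0.25 for Trav7-4 and -1.59 to 0.35 for Trav9-2. In Trbv they ran from -1.38 to 0.10 for Trbv13-1, -0.24 to 0.57 for Trbv13-2, -0.34 to 1.17 for Trbv13-3, -2.12 to 2.82 for Trbv16, -1.06 to 0.0521 for Trbv19 and -0.45 to 0.20 for Trbv3. Cd3g was at -0.0025 with no filter and -0.0035 with the replicate block. The cause was not tested. The difference between same-numbered and different-numbered pairs stayed negative under every alternative run, from -0.338 to -0.169 for Trav and -0.250 to -0.201 for Trbv.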

Other observations

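Gamma chain genes that carry Tcrg symbols in the count table fall outside the naming rule. Tcrg-C2, a gamma constant gene, had 788, 630 and 1173 counts in GFP-negative and 469, 477 and 1104 counts in GFP-positive replicates 1 to 3. Tcrg-C1 had 122, 352 and 385 counts against 146, 215 and 411, and Tcrg-C4 had 93, 104 and 81 counts against 7, 83 and 129. Tcrg-C2 was thus the highest of the 3 by count in every library, and its CPM were highest in the library numbered 3 of each gate, as for Trgv2. The Tcrg V genes were lower, with at most 49 counts in any library.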
